A study of Mus musculus with 6 samples.

Results

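Transcripts of the IL6 cytokine family, of its receptors and of the transcription factor Stat3 were compared between CD34- and CD34+ cancer-associated fibroblasts (CAFs) of mouse mammary tumors. The genes were the ligands Il6, Lif, Il11 and Clcf1, the receptor chains Osmr, Lifr, Il6st, Il6ra and Il11ra1, and Stat3. They were listed by name, with earlier results of these data known and with no threshold on their values, and make up 10 of the 27179 genes in the table of counts. All 10 passed the filter on low counts, which left 14855 genes tested.

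The CAFs came from 3 tumors of female raGFP-Wnt1 mice. These mice carry 1 copy of a Pdgfra H2B-GFP reporter, in which cells that express the fibroblast receptor gene Pdgfra have green nuclei, and an MMTV-Wnt1 transgene, which drives Wnt1 in the mammary epithelium and gives rise to tumors. The reporter came from a C57BL/6 line and the transgene from an FVB/NJ line, and the age of the tumor-bearing mice is not given in the sources used here. GFP+ cells of each tumor were sorted by surface CD34 into a negative and a positive fraction, so both groups share the reporter, the transgene and the 3 tumors, and each group has 3 bulk RNA-seq libraries. By the labels the groups differ in CD34 alone, and CAFs without the reporter signal were in neither of them.

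IL6-family cytokines signal through a common receptor chain, gp130, which is the product of Il6st. IL6 and IL11 first bind an alpha chain (Il6ra or Il11ra1) and then pair gp130 chains, whereas LIF and oncostatin M bring gp130 together with the partner chains Lifr or Osmr. CLCF1 acts through the alpha chain Cntfr together with gp130 and Lifr. The assembled receptors activate JAK kinases, which phosphorylate STAT3, and STAT3 in turn induces acute phase and growth genes and the feedback inhibitor Socs3. In tumor stroma, IL6 and LIF are known products of inflammatory CAFs.

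The libraries held between 16238059 and 86609267 counts. Counts were scaled by library size with composition factors (TMM) to CPM, and every signed difference below is CD34- minus CD34+. The CD34- library of tumor 3 stood apart, with counts for 14314 genes against 16253 to 19220 in the other libraries, and with correlations to the others of 0.837 to 0.883. The fibroblast label was checked with 8 markers, among them Pdgfra and Col1a1, whose summed level was 68150 to 94280 CPM in CD34- and 77410 to 94300 CPM in CD34+ CAFs. These sums rest mostly on collagen genes, and with the tumor as a block (a term for the tumor in limma-voom) 3 of the 8 differed, with Pdgfrb 1.92-fold higher and Dcn 2.17-fold and Lum 1.66-fold lower in CD34- CAFs (limma-voom adjusted p = 0.00714, 0.00154 and 0.014). The summed level of 8 immune markers was 5.23 to 11.6 CPM in CD34- and 5.94 to 15.8 CPM in CD34+ CAFs, with the leukocyte marker Ptprc at 0.481 CPM or less in every library. The 6 endothelial markers summed to 5.91 to 22.5 and 7.23 to 28.6 CPM, the 4 Schwann cell markers to 7.57 to 17.8 and 11.3 to 18.3 CPM, and the 4 adipocyte markers to 0.882 CPM or less, with 2 of the 4 at 0 in all libraries. The 6 epithelial markers summed to 48.3 to 149 CPM in CD34- and 12.8 to 130 CPM in CD34+ CAFs, and 5 of the 6 were higher in CD34- CAFs in all 3 tumors, although limma-voom called none of them with or without the block and DESeq2 with the block called Krt8 (adjusted p = 0.0283). The 6 pericyte markers summed to 211 to 236 CPM in CD34- and 86.8 to 188 CPM in CD34+ CAFs. With the tumor as a block, 3 pericyte markers (Cspg4, Mcam and Notch3) were higher and 2 (Kcnj8 and Abcc9) lower in CD34- CAFs. The remaining marker, Rgs5, was higher in CD34- CAFs in all 3 tumors and 6.08-fold higher with the block. Limma-voom did not call Rgs5 (adjusted p = 0.0803), whereas DESeq2 with the block did (adjusted p = 0.00391). The part of these fibroblast, epithelial and pericyte marker differences in the results below was not tested. In bulk libraries, fewer cells of a type and less RNA per cell cannot be told apart.

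In CD34- CAFs the transcripts of the IL6 axis, namely the cytokine Il6, its alpha receptor Il6ra and the common chain Il6st, lay below their level in the CD34+ CAFs of the same tumor in all 3 tumors. Il11ra1 did so too, and Lif, Clcf1 and Stat3 lay above their CD34+ level in all 3 tumors. The partner chains Osmr and Lifr had nearly equal means in both fractions. These differences were tested with limma-voom, first without and then with a term for the tumor (the tumor block), since the libraries of each tumor came from the same tumor. Without the block, limma-voom called 0 of the 10 genes at an adjusted p under 0.05, against 0.121% of all genes tested, and 2 of the 10 (Il6st and Il6ra) had an unadjusted p under 0.05, against 14.3%. With the block, limma-voom called 3 of the 10 genes lower in CD34- CAFs (Il6, Il6st and Il6ra), against 4.25% of all genes tested, and 0 of the 10 higher, against 4.32%. At an unadjusted p under 0.05, 5 of the 10 passed with the block, against 23.3% of all genes tested.

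The calls also varied with the tool. Without the block, edgeR, limma-trend and voom with sample quality weights each called 0 of the 10 genes, and DESeq2 called Il6st and Il6ra, with 5.45% of all genes it tested called. With the block, edgeR called 0 of the 10, with 3.87% of all genes called. DESeq2 with the block called 5 of the 10, namely Il6, Il6st, Il6ra and Il11ra1 lower and Lif higher, with 12.6% of all genes called. A limma-voom fit with the tumor as a random effect called Il6ra alone, with 4.73% of all genes called.

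Counted by direction alone, 4 of the 10 genes were lower in CD34- CAFs in all 3 tumors (Il6, Il6st, Il6ra and Il11ra1), against 23.4% of all genes tested. Another 3 were higher in all 3 tumors (Lif, Clcf1 and Stat3), against 22.8% of all genes tested. The directions of Il11, Osmr and Lifr were mixed. The median log2 fold change of the 10 genes was -0.0097 without and 0.027 with the block, beside -0.028 and -0.0099 over all genes tested.

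**Figure D1:**
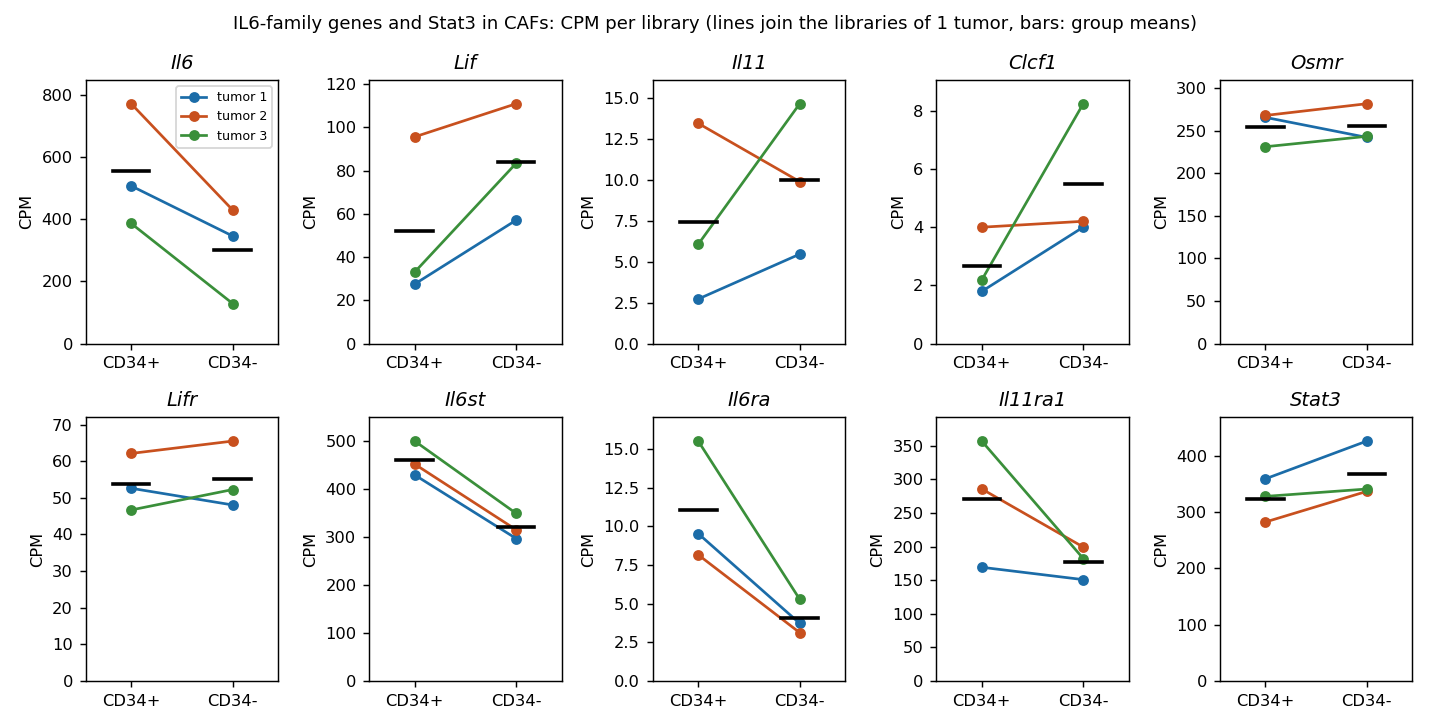
CPM of each of the 10 genes (vertical axes, from 0) in the CD34+ and CD34- libraries, with a line joining the libraries of each tumor and a black bar at the group mean. The lines of Il6, Il6st, Il6ra and Il11ra1 slope down from CD34+ to CD34- in each tumor, those of Lif, Clcf1 and Stat3 slope up, and those of Osmr and Lifr cross.

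The 250 bases before the annotated start of the 3 genes that were lower with the block are shown because these are the genes of the list that were called. The sequences are those of RefSeq for GRCm38.p6, 5′ to 3′ on the strand of the gene, and lie at chr5:30012864-30013113 (plus strand) for Il6, chr13:112463820-112464069 (plus strand) for Il6st and chr3:89913197-89913446 (minus strand) for Il6ra. Capitals mark matches on either strand to the motifs of STAT factors (TTCNNNGAA), NF-kB (GGGNNTTTCC), C/EBP factors (TTNNGNAAT) and AP-1 (TGANTCA), where N is any base.
Il6: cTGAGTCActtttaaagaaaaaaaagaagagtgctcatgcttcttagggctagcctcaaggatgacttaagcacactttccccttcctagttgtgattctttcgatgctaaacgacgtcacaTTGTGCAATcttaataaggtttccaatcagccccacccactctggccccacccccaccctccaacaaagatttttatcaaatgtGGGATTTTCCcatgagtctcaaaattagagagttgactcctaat
Il6st: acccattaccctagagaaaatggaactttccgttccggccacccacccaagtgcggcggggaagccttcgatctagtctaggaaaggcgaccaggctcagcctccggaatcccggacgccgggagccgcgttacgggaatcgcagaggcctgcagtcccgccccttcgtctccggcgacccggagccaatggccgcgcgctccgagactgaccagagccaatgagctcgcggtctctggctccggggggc
Il6ra: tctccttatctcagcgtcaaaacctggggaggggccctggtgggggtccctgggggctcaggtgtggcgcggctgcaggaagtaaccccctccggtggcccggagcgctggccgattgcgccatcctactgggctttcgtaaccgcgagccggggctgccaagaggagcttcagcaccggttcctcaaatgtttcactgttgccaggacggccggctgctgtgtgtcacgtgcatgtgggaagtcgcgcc
The Il6 window held an NF-kB match (GGGATTTTCC) that begins 44 bases before the start, a C/EBP match (TTGTGCAAT) at 128 bases and an AP-1 match (TGAGTCA) at 249 bases, none of which overlap. The windows of Il6st and Il6ra held none of the 4 motifs. Over 32851 windows of the same length, 1.41% held the NF-kB motif, 10.2% the C/EBP motif, 6.75% the AP-1 motif and 7.02% the STAT motif. Among the 9 genes with a window (there was none for Clcf1), the STAT motif was found in 0. The starts of the Osmr window and of the second Lifr window did not match the start of an annotated transcript. Beside Il6, AP-1 matches were found for Lif (TGACTCA, 228 bases before the start) and for the second annotated start of Il11 (TGAGTCA, 98 bases before it). A match of letters describes the sequence and is not evidence of binding.

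Among the ligands, Il6 had the highest level per length. Il6 (gene 16193, chromosome 5, 30013114 to 30019975 of GRCm38.p6) stood at 346, 429 and 129 CPM in the CD34- CAFs of tumors 1, 2 and 3, and at 507, 771 and 386 CPM in their CD34+ CAFs. The group means were 301 ± 155 and 555 ± 197 CPM (SD, n = 3). The ranges of the groups overlap, because CD34- CAFs of tumor 2 held more Il6 than CD34+ CAFs of tumor 3, yet within each tumor the CD34- library was lower. The log2 ratio within a tumor was -0.55 in tumor 1, -0.84 in tumor 2 and -1.59 in tumor 3. With the block, Il6 was 1.99-fold lower in CD34- CAFs (log2 fold change -0.99 ± 0.19, SE, limma-voom adjusted p = 0.0123, 95% interval -1.41 to -0.58). Without the block the estimate was similar but its error larger (-0.98 ± 0.45, limma-voom adjusted p = 0.373). The size rested in part on the CD34- library of tumor 3, since the estimate without the block was -0.42 when that library was left out. On all 6 libraries, voom with sample quality weights and no block gave -0.46 (limma-voom adjusted p = 0.534). With the block the estimate was -1.20 without tumor 1 (limma-voom adjusted p = 0.000162), -1.08 without tumor 2 (0.000179) and -0.71 without tumor 3 (0.0065). The blocked limma-voom fit on all 6 libraries already draws much of a gene's error from the spread over all genes. Without a tumor the blocked fit has few libraries left, so the error is drawn mostly from that spread. A call kept or lost in such fits, here and for the genes below, therefore says little about stability. On all libraries, edgeR with the block gave Il6 an adjusted p of 0.0616. An overlapping gene, A230098N10Rik, held 2 counts against 128446 for Il6.

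Lif, a cytokine that signals through Lifr and gp130, showed higher values in CD34- CAFs that did not pass limma-voom. Lif (gene 16878, chromosome 11, 4257568 to 4272514) stood at 57.1, 111 and 83.5 CPM in CD34- CAFs of tumors 1, 2 and 3, and at 27.5, 95.7 and 33.1 CPM in their CD34+ CAFs. The means were 83.9 ± 26.9 and 52.1 ± 37.8 CPM (SD, n = 3). Tumor 2 was high in both fractions, and the groups overlap for that reason. The log2 ratio within a tumor was 1.05, 0.21 and 1.33 in tumors 1, 2 and 3. With the block the log2 fold change was 0.75 ± 0.22 (SE, limma-voom adjusted p = 0.0712, 95% interval 0.25 to 1.24) and 0.71 ± 0.46 without it (limma-voom adjusted p = 0.519). The call varied with the tool and with leaving out tumor 2, the latter within the limit of such fits given for Il6. With the block and without tumor 2 the value was 1.21 (limma-voom adjusted p = 0.00142), and DESeq2 with the block gave an adjusted p of 0.00931 on all libraries. Fitted separately, Il6 and Lif thus had log2 fold changes of opposite sign in the same libraries.

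Clcf1 and Il11 were scarce. Clcf1 (gene 56708, chromosome 19, 4214238 to 4223505) stood at 4.006, 4.21 and 8.25 CPM in CD34- CAFs of tumors 1, 2 and 3, and at 1.79, 4.003 and 2.19 CPM in CD34+ CAFs, where tumor 1 had 29 counts. Its 3 CD34- values all lay above the CD34+ values, with 4.006 against 4.003 CPM at the nearest. The estimate for Clcf1 with the block was a log2 fold change of 0.73 ± 0.47 (SE, limma-voom adjusted p = 0.412, 95% interval -0.33 to 1.79). With the block and without tumor 2 it was 1.675 (limma-voom adjusted p = 0.436), and without tumor 3 it was 0.33 (0.603). Of the 50-base stretches of its transcripts, 13.3% also occur in AC109138.7, so its counts carry that uncertainty.

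Il11 signals through Il11ra1 and gp130. Il11 (gene 16156, chromosome 7, 4772373 to 4782907) stood at 5.47, 9.90 and 14.7 CPM in CD34- and at 2.72, 13.5 and 6.07 CPM in CD34+ CAFs of tumors 1, 2 and 3. CD34- CAFs were thus higher in tumors 1 and 3 and lower in tumor 2, and the ranges overlap. The log2 fold change was -0.027 ± 0.55 without the block (SE, limma-voom adjusted p = 0.989) and 0.17 ± 0.37 with it (limma-voom adjusted p = 0.847, 95% interval -0.66 to 0.99), so not even a direction was resolved.

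Of the receptors, the common chain Il6st gave the most even difference. Il6st (gene 16195, chromosome 13, 112464070 to 112506860), the transcript of gp130, stood at 296, 314 and 349 CPM in CD34- CAFs of tumors 1, 2 and 3, and at 429, 451 and 499 CPM in their CD34+ CAFs. The means were 320 ± 26.6 and 460 ± 36.0 CPM (SD, n = 3). The groups do not overlap. The log2 ratios of tumors 1, 2 and 3 lay close together, at -0.53, -0.52 and -0.52. With the block, Il6st was 1.44-fold lower in CD34- CAFs (log2 fold change -0.52 ± 0.12, SE, limma-voom adjusted p = 0.0263, 95% interval -0.79 to -0.26). Without the block the value was -0.52 ± 0.17 (limma-voom adjusted p = 0.224; DESeq2 adjusted p = 0.0499). With the block, the call was lost without tumor 1 (-0.52, limma-voom adjusted p = 0.0617) and without tumor 2 (-0.54, 0.206) and held without tumor 3 (-0.54, 0.0194), while the size hardly moved. The edgeR test with the block gave an adjusted p of 0.0833.

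Il6ra, the alpha chain that binds IL6, had the largest difference of the 10 genes in either limma-voom fit. Il6ra (gene 16194, chromosome 3, 89869324 to 89913196) stood at 3.72, 3.12 and 5.28 CPM in CD34- CAFs of tumors 1, 2 and 3, and at 9.53, 8.16 and 15.5 CPM in their CD34+ CAFs. The means were 4.04 ± 1.11 and 11.1 ± 3.92 CPM (SD, n = 3). The lowest CD34+ library lay above the highest CD34- library, and the counts behind these values ran from 141 to 697. The log2 ratio within a tumor was -1.36, -1.38 and -1.55 in tumors 1, 2 and 3. With the block, Il6ra was 2.72-fold lower in CD34- CAFs (log2 fold change -1.44 ± 0.31, SE, limma-voom adjusted p = 0.0215, 95% interval -2.14 to -0.74), and without the block the value was -1.35 ± 0.39 (limma-voom adjusted p = 0.178). DESeq2 called Il6ra without the block (adjusted p = 0.0175), as did the fit with the tumor as a random effect (adjusted p = 0.0403). Like Il6st, it lost the call with the block without tumor 1 (-1.48, limma-voom adjusted p = 0.101) or tumor 2 (-1.49, 0.0879) and kept it without tumor 3 (-1.38, 0.00987). The edgeR test with the block gave an adjusted p of 0.0515.

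Il11ra1, the alpha chain of the IL11 receptor, had lower values in CD34- CAFs that did not pass limma-voom. Il11ra1 (gene 16157, chromosome 4, 41760443 to 41769473) stood at 151, 199 and 182 CPM in CD34- CAFs of tumors 1, 2 and 3, and at 169, 286 and 357 CPM in their CD34+ CAFs. The means were 177 ± 24.6 and 271 ± 94.9 CPM (SD, n = 3). The spread lay mostly in the CD34+ CAFs, whose tumor 1 library was within the CD34- range. With the block Il11ra1 had a log2 fold change of -0.56 ± 0.16 (SE, limma-voom adjusted p = 0.0659, 95% interval -0.92 to -0.20) and -0.53 ± 0.28 without it (limma-voom adjusted p = 0.436). With the block and without tumor 1 it was -0.74 (limma-voom adjusted p = 0.00871). Il11ra1 has near-identical copies, and 40.1% of the 50-base stretches of its transcripts also occur in Gm13305. How the counting treated reads that match several genes is not given in the sources used here, so its level is uncertain.

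The partner chains Osmr and Lifr, which pair with gp130 for oncostatin M and LIF, differed least. Osmr (gene 18414, chromosome 15, 6813568 to 6874968) stood at 242, 281 and 243 CPM in CD34- and at 265, 268 and 231 CPM in CD34+ CAFs of tumors 1, 2 and 3. Its means were 256 ± 22.4 and 255 ± 20.6 CPM (SD, n = 3), and the ranges of the groups overlap. The log2 fold change of Osmr was 0.0055 ± 0.12 with the block (SE, limma-voom adjusted p = 0.985), with a 95% interval of -0.27 to 0.28.

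Lifr is the chain through which LIF and CLCF1 reach gp130. Lifr (gene 16880, chromosome 15, 7090610 to 7197489) stood at 48.0, 65.5 and 52.3 CPM in CD34- and at 52.6, 62.1 and 46.7 CPM in CD34+ CAFs of tumors 1, 2 and 3. Tumor 2 was highest in both fractions. The log2 fold change of Lifr was 0.048 ± 0.14 with the block (SE, limma-voom adjusted p = 0.888), with a 95% interval of -0.27 to 0.37. The signs of Osmr and Lifr turned under some scalings or when a library was left out.

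Stat3, the transcription factor at the end of the cascade, is regulated mainly by phosphorylation, which RNA does not measure. Stat3 (gene 20848, chromosome 11, 100886806 to 100939594) stood at 426, 337 and 341 CPM in CD34- CAFs of tumors 1, 2 and 3, and at 359, 282 and 328 CPM in their CD34+ CAFs. The CD34- library was the higher in each tumor, by 0.25, 0.25 and 0.057 on the log2 scale, and the groups overlap. For Stat3 the log2 fold change was 0.19 ± 0.12 with the block (SE, limma-voom adjusted p = 0.421, 95% interval -0.089 to 0.46) and 0.17 ± 0.18 without it (limma-voom adjusted p = 0.716).

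**Figure D2:**
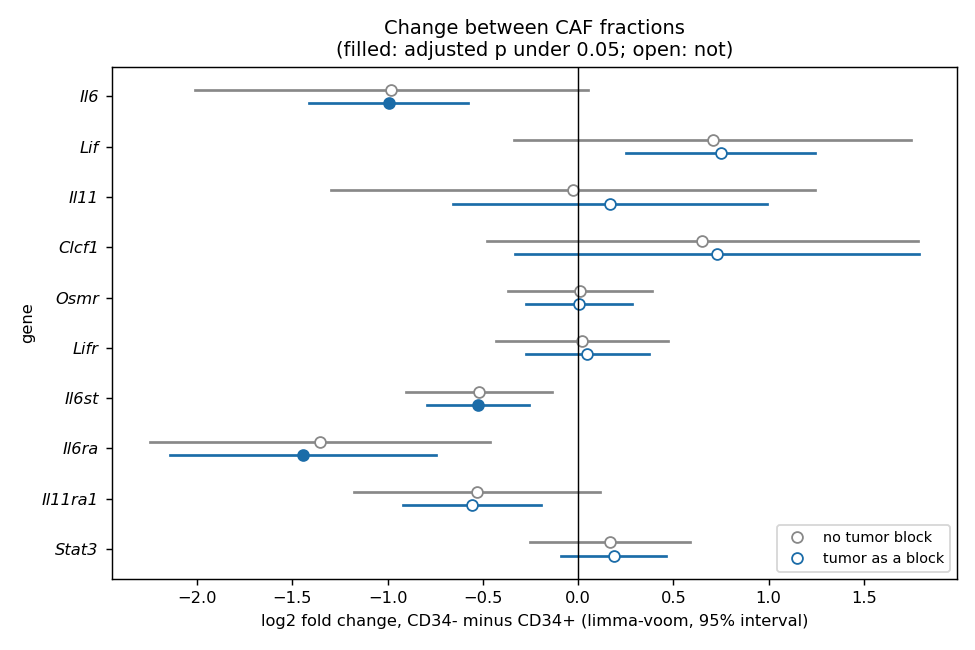
Log2 fold change, CD34- minus CD34+ (horizontal axis), of the 10 genes in limma-voom without (grey) and with the tumor block (blue), with 95% intervals and filled points where the adjusted p was under 0.05. The block narrows the intervals and leaves the estimates nearly in place, except that of Il11, which turns from -0.027 to 0.17, and the filled points are those of Il6, Il6st and Il6ra.

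Levels of different genes were compared per length, as CPM per kilobase of gene length (RPKM). Over the 6 libraries Il6 had the highest mean, 394 RPKM (range 118 to 709). It was followed by Il11ra1 with 114 RPKM (76.9 to 182), Stat3 with 77.0 RPKM (62.9 to 94.99), Il6st with 71.5 RPKM (54.3 to 91.5) and Osmr with 52.8 RPKM (47.8 to 58.2). The range of each of these 5 genes overlaps that of its neighbour in the order. A gap in level separates them from Lif with 16.8 RPKM (6.82 to 27.5), and the ranges of Lif and Lifr (5.28 RPKM, 4.52 to 6.34) do not overlap either. At the low end, Lifr, Clcf1 with 4.98 RPKM (2.19 to 10.1), Il11 with 4.48 RPKM (1.401 to 7.54) and Il6ra with 2.26 RPKM (0.934 to 4.64) overlap with their neighbours. Within each group Il6 was also the highest. Il6ra was the lowest in CD34- CAFs (mean 1.21 RPKM), but in CD34+ CAFs it had 3.31 RPKM and Clcf1 3.25 RPKM, and Il6st (84.3 RPKM) lay above Stat3 (72.0 RPKM) there, while Stat3 (82.0 RPKM) lay above Il6st (58.6 RPKM) in CD34- CAFs.

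**Figure D3:**
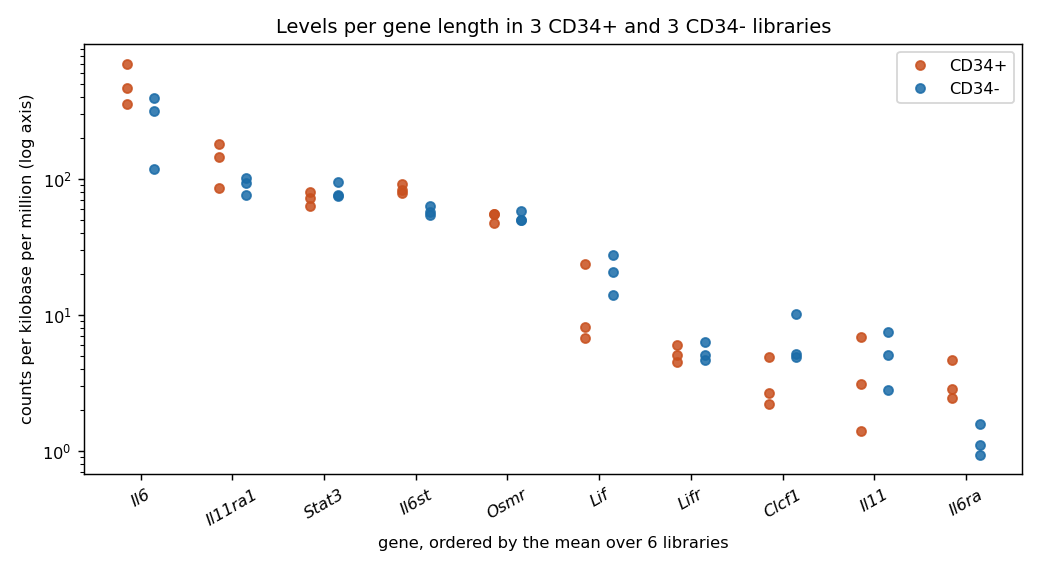
RPKM of each gene on a log axis, in order of the mean over the 6 libraries, with the CD34+ and CD34- libraries as separate columns of points. Il6 lies between 118 and 709 RPKM and Il6ra between 0.934 and 4.64 RPKM.

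The 3 genes whose log2 CPM followed Il6 most closely over the 6 libraries, counting only genes that averaged 3 or more on that scale, were Mipep (Pearson r = 0.997), Gm13363 (0.989) and Gm15501 (0.989). These values describe 6 libraries from 3 tumors, which share tumors and differ in depth. The block did not give a limma-voom adjusted p under 0.05 for any of the 3 (Mipep 0.423, Gm13363 0.19, Gm15501 0.356).

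Beyond the 10 genes, 45 genes of the pathway were examined, of which 38 passed the filter on low counts. Without the block limma-voom called 0 of the 38, against 0.121% of all genes tested, with 6 at an unadjusted p under 0.05, where 14.3% of all genes were. Without the block edgeR, limma-trend and quality weights also called 0, and DESeq2 called 3 (Myc, Saa3 and Lbp), with 5.45% of all genes it tested called. With the block limma-voom called 0 of the 38 higher and 5 lower (Jak1, Ptpn2, Myc, Saa3 and Lbp) in CD34- CAFs, and 33 did not pass, where 4.32% and 4.25% of all genes were called higher and lower. The edgeR test with the block called 2 of the 38 (Myc and Lbp), with 3.87% of all genes called. DESeq2 with the block called 6, adding Cish to the 5, with 12.6% of all genes called. At an unadjusted p under 0.05, 13 of the 38 passed limma-voom with the block, against 23.3% of all genes tested. In all 3 tumors 6 of the 38 were higher and 11 lower in CD34- CAFs, against 22.8% and 23.4% of all genes tested. Their median log2 fold change with the block was -0.064, beside -0.0099 over all genes tested.

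Of 7 other ligands, Ctf1 alone was tested, and it did not pass (log2 fold change 0.70 ± 0.78 with the block, SE, limma-voom adjusted p = 0.663). The ligands Osm, Ctf2, Cntf, Il27, Ebi3 and Il31 and the receptor Il31ra did not pass the filter, with at most 13 counts in any library. Osm, which encodes oncostatin M, had at most 3 counts in any library, whereas its receptor chain Osmr stood at 231 to 281 CPM.

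The other receptors gave no call among 3 tested. Cntfr, the alpha chain for CLCF1, stood at 5.14, 8.06 and 5.17 CPM in CD34- and at 1.98, 5.33 and 9.81 CPM in CD34+ CAFs of tumors 1, 2 and 3, with no common direction (0.18 with the block, limma-voom adjusted p = 0.847). Both shedding proteases that can release receptor ectodomains, Adam10 and Adam17, were lower in CD34- CAFs in all 3 tumors, and neither passed (limma-voom adjusted p = 0.155 and 0.245 with the block).

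Of 6 kinases and other STATs, 1 was lower with the block and none higher, against 4.25% and 4.32% of all genes tested. Jak1, the JAK kinase most tied to gp130, stood at 438, 355 and 320 CPM in CD34- CAFs of tumors 1, 2 and 3, and at 523, 516 and 551 CPM in their CD34+ CAFs, without overlap. With the block it was 1.44-fold lower (log2 fold change -0.53 ± 0.14, SE, limma-voom adjusted p = 0.0463). This call was near the threshold and was lost without tumor 2 (limma-voom adjusted p = 0.213) or tumor 3 (0.0701) and in edgeR with the block (adjusted p = 0.126).

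Of 8 negative regulators, 1 was lower with the block, against 4.25% of all genes tested. Ptpn2, a phosphatase that acts on JAK1 and STAT3, stood at 49.3, 45.6 and 40.4 CPM in CD34- and at 71.5, 76.0 and 55.4 CPM in CD34+ CAFs of tumors 1, 2 and 3, without overlap. With the block it was 1.51-fold lower (log2 fold change -0.59 ± 0.14, SE, limma-voom adjusted p = 0.0336), a call lost without tumor 1 (0.0778) or tumor 2 (0.356). Socs3, the feedback inhibitor that STAT3 induces, stood at 677, 540 and 274 CPM in CD34- and at 559, 514 and 493 CPM in CD34+ CAFs. It was higher in the CD34- CAFs of tumors 1 and 2 and lower in those of tumor 3, the library that stood apart. The log2 fold change of Socs3 was -0.17 ± 0.20 with the block (SE, limma-voom adjusted p = 0.682, 95% interval -0.62 to 0.28), and 0.16 with the block and without tumor 3.

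Of 18 known STAT3 target genes, 3 were lower with the block (Myc, Saa3 and Lbp), against 4.25% of all genes tested. None was higher, against 4.32%, and 15 did not pass. Their median log2 fold change with the block was 0.091, beside -0.0099 over all genes tested. Myc, a growth regulator with many inputs besides STAT3, stood at 278, 252 and 189 CPM in CD34- and at 488, 440 and 437 CPM in CD34+ CAFs of tumors 1, 2 and 3. With the block Myc was 1.92-fold lower (log2 fold change -0.94 ± 0.13, SE, limma-voom adjusted p = 0.0038). It passed whichever tumor was left out, within the limit of such fits given for Il6.

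The other 2 that passed encode acute phase proteins. Lbp, which binds bacterial lipopolysaccharide, stood at 167, 179 and 194 CPM in CD34- and at 318, 270 and 547 CPM in CD34+ CAFs, and was 2.01-fold lower with the block (log2 fold change -1.01 ± 0.17, SE, limma-voom adjusted p = 0.00792). Saa3, a serum amyloid A gene, stood at 5.93, 9.99 and 3.93 CPM in CD34- and at 7.55, 59.9 and 50.1 CPM in CD34+ CAFs. Saa3 was thus low in both fractions of tumor 1 and much higher in the CD34+ CAFs of tumors 2 and 3. With the block it was 5.80-fold lower (log2 fold change -2.54 ± 0.41, SE, limma-voom adjusted p = 0.00674), while edgeR with the block gave an adjusted p of 0.104. Like Myc, both Lbp and Saa3 passed with the block whichever tumor was left out, within the same limit. Without the block Saa3 passed when the CD34+ library of tumor 1 was left out (log2 fold change -3.13, limma-voom adjusted p = 0.0289). Bcl3, another STAT3 target, stood at 60.7, 39.4 and 29.2 CPM in CD34- and at 39.4, 32.7 and 45.9 CPM in CD34+ CAFs, and its log2 fold change was 0.10 ± 0.22 with the block (SE, limma-voom adjusted p = 0.846).

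**Figure D4:**
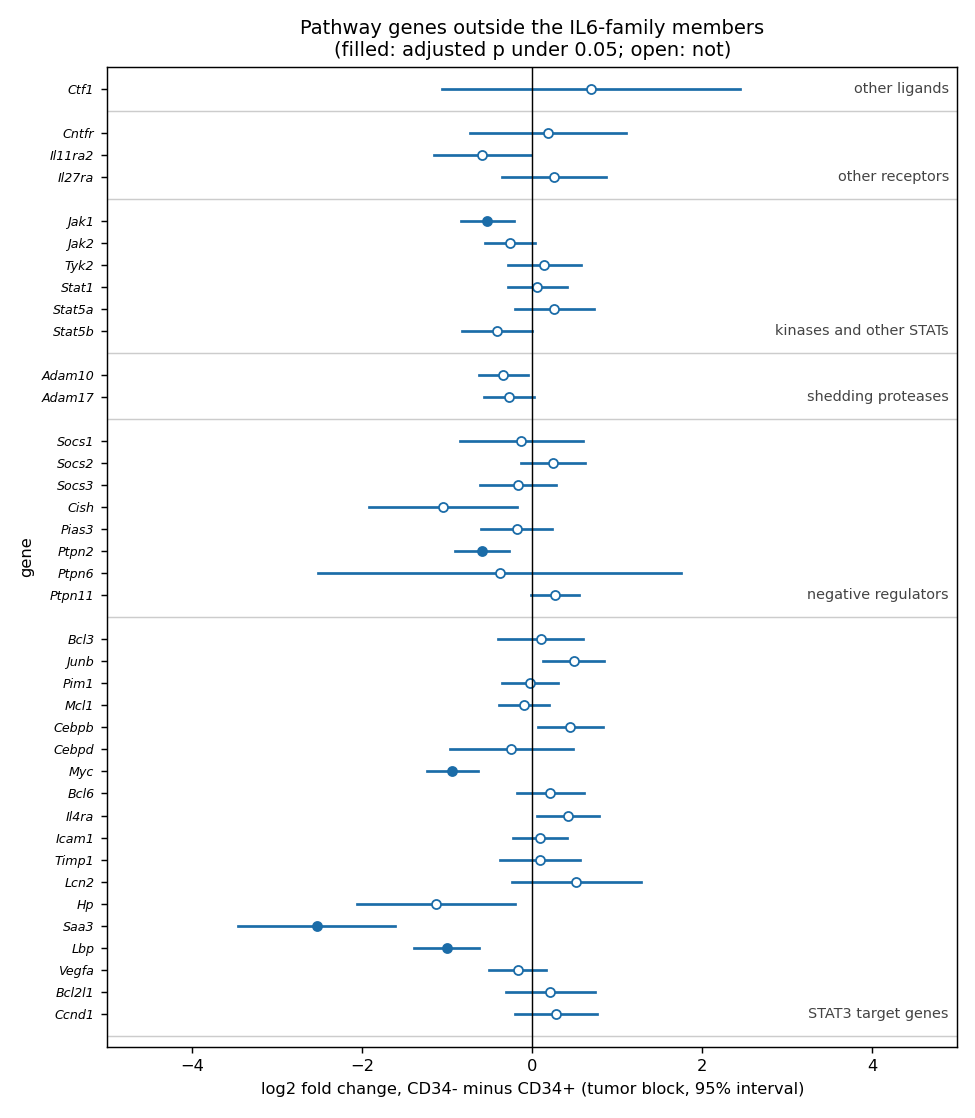
Log2 fold change, CD34- minus CD34+ (horizontal axis), of the 38 tested pathway genes in limma-voom with the tumor block, grouped by list, with 95% intervals and filled points where the adjusted p was under 0.05. The filled points are Jak1, Ptpn2, Myc, Saa3 and Lbp, all to the left of 0.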

How the data were processed

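Bulk RNA-seq was performed on 6 libraries (TruSeq RNA v2, an Illumina NextSeq). The authors aligned reads to GRCm38/mm10 and counted them per gene with Rsubread v2.2.6. The deposited values are raw counts, 1 column per library. Strand use and the handling of reads with several matches are not given in the sources used here. Groups and tumor numbers came from the sample labels.

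The fit was modelled on the study's methods: filterByExpr (minimum count 10), TMM and limma-voom on all genes, two-sided, with Benjamini-Hochberg adjustment and 0.05 as the threshold. Those methods name no tumor term, so none was used, and they remove genes without annotation, whereas genes without a symbol were kept here and removed in an alternative. Versions were limma 3.58.1 and edgeR 4.0.16 in R 4.3.3. P-values without a tumor term measure the spread between these libraries. Those with it rest on the spread of the difference within a tumor over the 3 tumors. In limma-voom each gene's error is also moderated toward the spread over all genes (empirical Bayes). With the block much of the error comes from there, so these p-values do not measure a gene's own spread alone. The tumor number pairs libraries of the same tumor, whose deviations from the group means correlated at 0.373, 0.35 and 0.219 in tumors 1, 2 and 3, so the fit was repeated with the tumor number as a term (the replicate block). With 3 libraries per group an exact permutation test that ignores the tumors cannot go below p = 0.1. A version paired within tumors has fewer arrangements still, and neither was used. CPM values are scaled by library total and TMM factor, and RPKM uses the gene length in the deposited table. Marker sums are summed CPM values. The log2 ratio of a tumor subtracts the voom log2 CPM of its CD34+ library from that of its CD34- library. Alternatives covered scaling, filter, genes without a symbol (1310, kept), test (DESeq2 1.42.0, edgeR quasi-likelihood, voom with quality weights, and limma-trend with a prior count of 2), the block, each library and each tumor. Scripts were tested on simulated data.

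The 10 genes, the pathway lists and the markers were chosen with earlier results of these data known. Of the pathway lists, 1 gene is not reported here and is left out of their counts. Named are the 10 genes, pathway genes called with or without the block (at most 6 per list), Socs3, Bcl3 and the 3 genes most correlated with Il6. Genes outside this rule (Ctf1, Cntfr, Adam10, Adam17, Cish and the untested genes) were named after their values were seen.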

Additional observations from a re-analysis of the deposited data

How the results depend on the processing

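Of the 10 IL6-family genes and Stat3, 0 were called by limma-voom without a tumor term. The count was 2 with DESeq2, 3 with the replicate block, 5 with the block in DESeq2 and 1 when the tumor was a random effect. The blocked count was 2 without tumor 1, 2 without tumor 2 and 3 without tumor 3. It was 0 under the other alternatives, including the unblocked fits that omitted 1 library or 1 tumor. Of the 38 pathway genes, 0 were called without the block, 3 with DESeq2, 5 with the block, 2 with the block in edgeR, 6 with the block in DESeq2 and 2 with the random effect. It was 1 without tumor 1, and with the block 6 without tumor 1, 4 without tumor 2 and 7 without tumor 3. Leaving out 1 library gave 0 to 1, the 1 being Saa3 without the CD34+ library of tumor 1. Of all genes tested, DESeq2 called 5.45% without and 12.6% with the block. With the block limma-voom called 4.32% higher and 4.25% lower and edgeR called 3.87%, and the random effect gave 4.73%. For the fits without a library or a tumor no share over all genes was computed, so their counts cannot be set beside one.

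The log2 fold changes of Il6, Lif, Clcf1, Il6st, Il6ra, Il11ra1 and Stat3 kept their sign under all 24 alternatives, and their calls changed as given with each gene. That of Il11 (-0.027) turned positive in 15 of the 24: 0.010 with no low-count filter, 0.42 in edgeR, 0.41 in DESeq2, 0.61 in limma-trend, 0.029 with sample quality weights, 0.17 with the block, 0.60 with the block in edgeR or DESeq2, 0.060 with the random effect, 0.14 without tumor 1 and 0.84 without tumor 2. With the block it was 0.082 without tumor 1 and 1.19 without tumor 2. That of Osmr (0.0077) was -0.0043 with RLE scaling, -0.015 with library totals alone, -0.0071 in DESeq2 and -0.0069 in DESeq2 with the block. Without tumor 2 and tumor 3 it was -0.044 and -0.041, and with the block -0.039 and -0.044. That of Lifr (0.021) was -0.0053 with library totals alone, -0.052 without tumor 3 and -0.022 with the block and without tumor 3. That of Socs3 (-0.19) was 0.073 with sample quality weights, 0.15 without tumor 3 and 0.16 with the block and without tumor 3. That of Bcl3 (0.13) was -0.11 without tumor 1 and -0.014 without tumor 2, and with the block -0.094 and -0.020. Leaving out 1 library gave -0.30 to 0.94 for Il11, -0.071 to 0.047 for Osmr, -0.12 to 0.15 for Lifr, -0.46 to 0.21 for Socs3 and -0.17 to 0.35 for Bcl3. None of these values passed the test, and the cause of the changes was not tested.

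With 3 libraries per group, a lone value can set a group's spread, and Clcf1, Il11 and Il6ra rest on few counts in the smallest library (29, 44 and 154).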

Other observations

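The following ratios were chosen after the values were seen, and are ratios of raw counts within a library, so they do not depend on scaling. The ratio of Il6 to Lif was 6.05, 3.87 and 1.54 in the CD34- CAFs of tumors 1, 2 and 3 and 18.4, 8.06 and 11.7 in their CD34+ CAFs, without overlap of the groups. The mean ratio was 3.82 ± 2.25 in CD34- and 12.7 ± 5.25 in CD34+ CAFs (SD, n = 3). The ratio of Osmr to Il6st was 0.817, 0.895 and 0.698 in CD34- and 0.619, 0.593 and 0.463 in CD34+ CAFs, and that of Lifr to Il6st was 0.162, 0.208 and 0.150 in CD34- and 0.123, 0.138 and 0.0935 in CD34+ CAFs. In each tumor both ratios were higher in CD34- CAFs. The ratio of Il6ra to Il6st was 0.0126, 0.00993 and 0.0151 in CD34- and 0.0222, 0.0181 and 0.0311 in CD34+ CAFs, and was lower in CD34- CAFs in each tumor. The ratio of Il11ra1 to Il6st had no common direction, at 0.509, 0.634 and 0.523 in CD34- and 0.395, 0.634 and 0.716 in CD34+ CAFs. No test was run on these ratios.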
